A study of Homo sapiens with 4 samples.

Results

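The mitogen-activated protein kinase (MAPK) feedback genes were examined in FOXK2 ChIP-seq data of OVCAR5, an established high grade serous ovarian cancer cell line, to ask where this forkhead transcription factor was bound around the genes that switch MAPK signalling off. The set held 10 genes: the dual-specificity phosphatases DUSP1, DUSP4, DUSP5, DUSP6 and DUSP10, and the Sprouty family genes SPRY1, SPRY2, SPRY4, SPRED1 and SPRED2. A peak belonged to a gene when the deposited annotation gave that symbol as the gene of the nearest transcription start site (TSS), and 26 of 12471 peaks in replicate 1 and 45 of 27281 peaks in replicate 2 met this rule. Both biological replicates came from 1 condition, cultured OVCAR5 cells whose chromatin was precipitated with a FOXK2 antibody and for which the labels name no treatment, so the data held no comparison between conditions and no test of one. The input libraries that accompany them were not analysed here, and the values therefore describe which peaks were called and how they ranked, in a single cell line.

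MAPK pathways carry signals from growth factor receptors and stress to the nucleus through RAS, RAF, MEK and ERK, or through the parallel JNK and p38 kinases. The kinases induce their own brakes. DUSP phosphatases remove the activating phosphates from the kinases themselves, whereas Sprouty proteins act upstream, between receptor and RAF, and SPRED proteins bring the RAS inactivator neurofibromin to the membrane. Such feedback limits how strongly and how long ERK stays active, and it is known from many cancers with active RAS signalling. FOXK2 belongs to the forkhead family, whose members recognise DNA with a core such as TGTTTAC.

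The sequences under 2 of the best-ranked peaks near gene starts are shown first, since neither of them held an exact TGTTTAC. Each is the stretch shared by the peaks of both replicates, on the plus strand of hg38, named by the gene and the distance of the replicate 1 peak centre from its TSS. Capitals mark heptamers that differ from TGTTTAC, read on either strand, at exactly 1 base, and the SPRY2 stretch has no such site.

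DUSP1 -1320 bp, chr5:172772415-172772625: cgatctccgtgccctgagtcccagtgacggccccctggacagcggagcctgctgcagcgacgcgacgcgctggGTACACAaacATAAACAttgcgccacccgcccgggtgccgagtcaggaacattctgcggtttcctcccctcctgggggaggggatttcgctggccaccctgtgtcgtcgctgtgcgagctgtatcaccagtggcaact

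SPRY2 -251 bp, chr13:80341261-80341471: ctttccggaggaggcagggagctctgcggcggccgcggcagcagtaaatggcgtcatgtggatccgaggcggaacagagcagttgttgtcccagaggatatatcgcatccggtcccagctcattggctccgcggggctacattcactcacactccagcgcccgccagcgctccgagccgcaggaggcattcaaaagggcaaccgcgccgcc

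In the DUSP1 stretch the marked sites were TGTGTAC (T4G, position 1 being the 5′ base of TGTTTAC) and TGTTTAT (C7T), both on the minus strand, 29 and 19 bp from the centre of the replicate 1 peak. A heptamer with 1 changed base is common: 21 of 26 peaks of the set in replicate 1 and 32 of 45 in replicate 2 had at least 1 within 100 bp of the centre, where 57.1% and 58.2% of all peaks did, so these sites are given as a description of the sequence.

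In overlapping peaks of the set, exact TGTTTAC sites lay further out. The next 3 stretches each carry 1, in capitals, as GTAAACA where the heptamer is on the minus strand, and in the DUSP10 stretch TGAGTCA, the minus-strand form of the AP-1 site TGACTCA, is in capitals too.

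DUSP5 -10074 bp, chr10:110487688-110487898: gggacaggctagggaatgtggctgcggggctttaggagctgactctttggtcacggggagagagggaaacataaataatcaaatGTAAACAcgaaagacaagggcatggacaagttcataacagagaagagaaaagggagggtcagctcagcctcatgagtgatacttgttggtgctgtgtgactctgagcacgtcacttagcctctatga

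DUSP6 -18459 bp, chr12:89371213-89371423: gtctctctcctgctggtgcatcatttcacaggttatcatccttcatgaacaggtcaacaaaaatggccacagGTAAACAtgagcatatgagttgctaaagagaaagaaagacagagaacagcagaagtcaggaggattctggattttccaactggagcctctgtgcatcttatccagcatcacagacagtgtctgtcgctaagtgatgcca

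DUSP10 +69141 bp, chr1:221667654-221667864: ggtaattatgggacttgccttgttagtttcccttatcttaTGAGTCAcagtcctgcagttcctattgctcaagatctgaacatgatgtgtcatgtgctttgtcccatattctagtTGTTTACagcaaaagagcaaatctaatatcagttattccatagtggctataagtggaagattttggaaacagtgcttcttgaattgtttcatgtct

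The best-ranked distal peaks included one without an exact site, 35.8 kb upstream of SPRED1, in an intron of the long noncoding RNA gene LINC02895. Its capitals mark 2 copies of TGTTGAC (T5G).

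SPRED1 -35848 bp, chr15:38216898-38217108: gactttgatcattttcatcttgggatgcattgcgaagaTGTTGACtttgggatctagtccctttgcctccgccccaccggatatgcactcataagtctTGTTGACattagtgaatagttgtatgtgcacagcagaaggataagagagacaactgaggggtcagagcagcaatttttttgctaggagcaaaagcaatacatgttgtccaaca

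FOXK2 peaks were found at 8 of the 10 genes in replicate 1 and at all 10 in replicate 2. At 8 genes the peaks of both replicates overlapped by at least 1 bp, and the exceptions were DUSP4 and SPRY4, each with a single promoter peak in replicate 2 only. Of 20007 protein-coding genes, 31.4% had a peak in replicate 1, 51.8% in replicate 2, 28.7% in both and 25.6% overlapping peaks. Pairs of overlapping peaks numbered 5 at DUSP5, 4 at DUSP6 and at SPRED2, 3 at DUSP10, 2 at DUSP1, SPRY1 and SPRED1, and 1 at SPRY2. The median was 2 pairs per gene, against 0 over all protein-coding genes. At least 2 pairs were present at 7 of the 10 genes and at 6.29% of all protein-coding genes, and 5 or more pairs at 1 of the 10 and at 0.215% of all. Promoter peaks, which HOMER defines as lying from 1000 bp upstream to 100 bp downstream of the start of any annotated transcript, were called in both replicates at DUSP5, DUSP10, SPRY2 and SPRED2, or 4 of 10 genes, beside 9.33% of all protein-coding genes.

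Most replicate 1 peaks of the set were also called in replicate 2. In replicate 1, 23 of 26 peaks of the set were overlapped by a replicate 2 peak (88.5%, exact 95% binomial interval 69.9% to 97.5%), and 74.9% of all replicate 1 peaks were. In replicate 2, 23 of 45 were overlapped (51.1%, 35.8% to 66.3%), with 34.2% over all replicate 2 peaks. Such intervals cover counting error only. Centres of the 23 pairs lay a median of 16 bp apart, and the widest gap was 164 bp, at the DUSP6 peak 23 kb upstream. Across the 23 pairs the scores gave a Spearman rho of 0.694, and across all 9343 pairs 0.852, each a description over peaks that share their libraries.

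**Figure D1:**
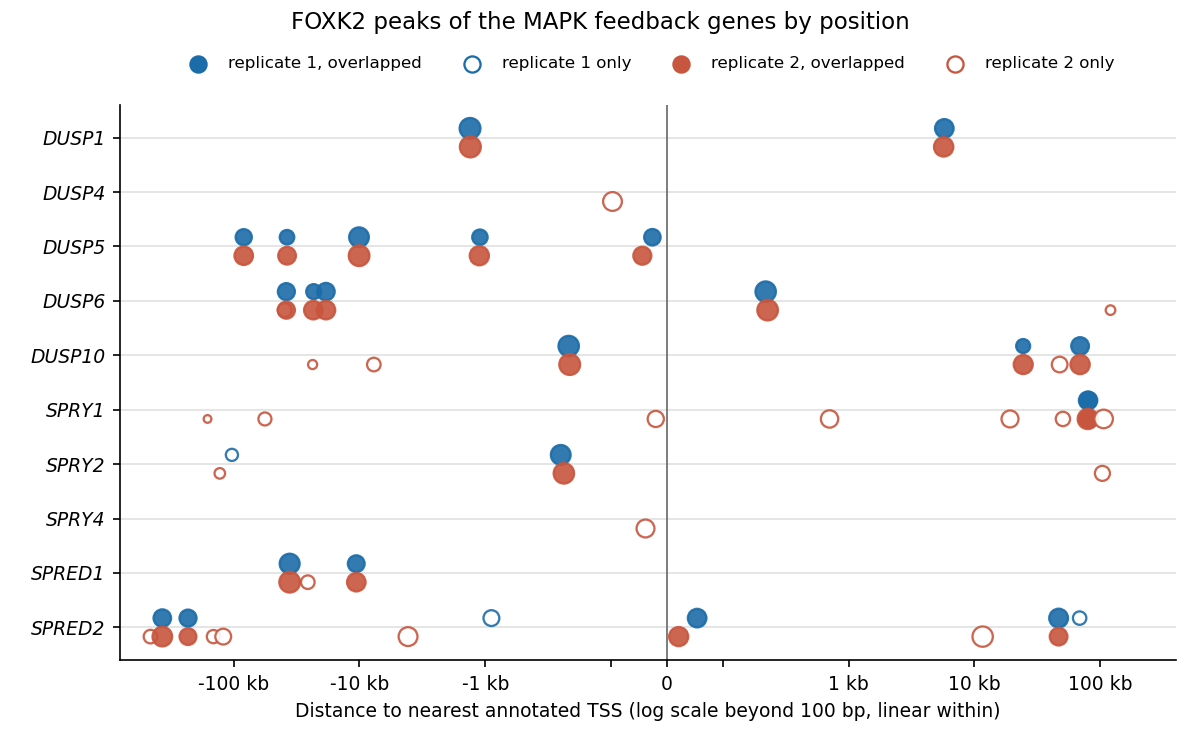
FOXK2 peaks of the 10 MAPK feedback genes. The horizontal axis is the distance of the peak centre to the nearest annotated TSS (log scale beyond 100 bp, upstream to the left), blue points are replicate 1 and red points replicate 2, filled points overlap a peak of the other replicate, and larger points have a higher score percentile in their own list. DUSP5 has 5 filled pairs on the upstream side, whereas DUSP4 and SPRY4 show a single open replicate 2 point each.

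Peak scores are scaled within each library and were therefore compared as ranks in their own list, rank 1 being the highest score and tied peaks sharing the better rank. The peaks of the set had a median score percentile of 65.1 in replicate 1 and 68.4 in replicate 2, with 50.7 over all peaks of either list. In the plot of paired percentiles, 6 pairs of 6 different genes stand at the upper right, and the others spread through the middle of the cloud.

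**Figure D2:**
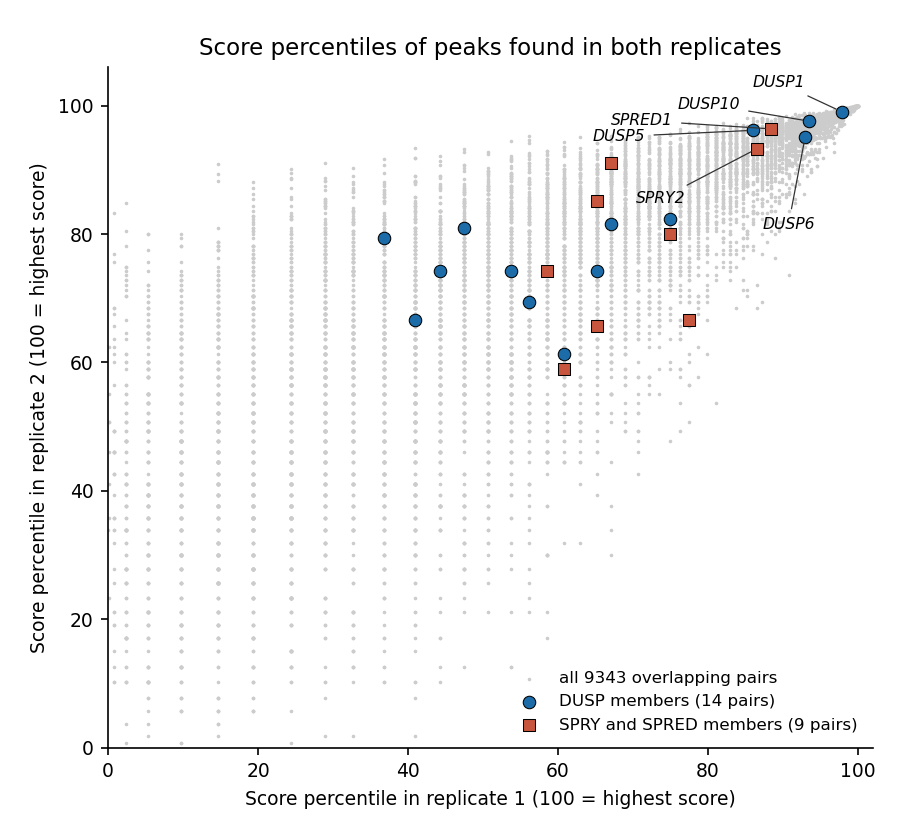
Score percentiles of overlapping peaks, replicate 1 on the horizontal and replicate 2 on the vertical axis (100 is the highest score in a list). Grey points are all 9343 pairs, circles the 14 pairs of DUSP genes and squares the 9 pairs of SPRY and SPRED genes. The named pairs of DUSP1, DUSP10, DUSP6, SPRED1, DUSP5 and SPRY2 have a percentile of at least 85 in both replicates.

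DUSP1, an immediate early gene whose nuclear phosphatase acts on p38, JNK and ERK, had the strongest peak of the set. The gene lies at chr5:172768096-172771195 on the minus strand (hg38, GENCODE release 44). Its upstream peak had a score of 20.0 (rank 273 of 12471) in replicate 1 and 40.2 (rank 252 of 27281) in replicate 2, at -1320 and -1313 bp. That position is in a CpG island by the deposited annotation, outside the promoter window, and in an exon of an unnamed long noncoding RNA gene in GENCODE. A weaker pair lay 5.8 kb downstream of the TSS, beyond the gene's end, with scores of 8.11 (rank 3127) and 12.6 (rank 4807) and centres 70 bp apart. Another strong pair sits 39.7 kb downstream of the DUSP1 start at ranks 906 and 894 with an exact TGTTTAC, but the deposited annotation names it for LOC101928093, so it is not counted for DUSP1.

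DUSP5, a nuclear phosphatase that acts on ERK, had the most overlapping peaks, and all 5 of its peaks in each list were paired. The gene is at chr10:110497907-110511533 on the plus strand, and its 5 pairs were spread from the promoter to 83 kb upstream. The strongest, 10 kb upstream in an intron of the divergent transcript DUSP5-DT and printed above, scored 10.2 (rank 1751) in replicate 1 and 23.2 (rank 1047) in replicate 2. Its TGTTTAC lay 18 bp from the centre of the replicate 1 peak and 34 bp from that of the replicate 2 peak. None of the other 4 pairs held this heptamer. The promoter pair, at -26 and -44 bp, had scores of 6.23 (rank 5476) and 9.67 (rank 8342), and its neighbour at -1102 and -1114 bp had 5.66 (rank 6554) and 12.2 (rank 5177). Both ranked below the 10 kb peak in each replicate. The pair 37.6 kb upstream, with 2 copies of TGTTTAT in the replicate 1 window and 1 in that of replicate 2, had the lowest mean percentile of the 23 pairs (5.28, rank 7370, and 9.22, rank 9092). At 83 kb upstream a pair with an AP-1 site scored 6.04 (rank 5777) and 10.6 (rank 7022).

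Among all protein-coding genes outside the MAPK lists, GADD45B and ZFHX3 were the 2 with the same counts as DUSP5, 5 peaks in each replicate and 5 overlapping pairs. Their best peaks ranked 841 and 505 for GADD45B, a stress-induced gene that itself feeds into MAPK signalling, and 247 and 531 for ZFHX3, which encodes a zinc finger homeobox factor.

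DUSP6, the cytoplasmic phosphatase that acts on ERK, combined a strong peak at its start with a group of weaker ones upstream. The gene lies at chr12:89347235-89352501 on the minus strand. The peak at the start had scores of 13.2 (rank 879) and 21.1 (rank 1332), and its centre lay 219 and 227 bp downstream of the TSS in the 5′ UTR by the deposited annotation, and at -139 and -131 bp of the gene start in GENCODE. It carried the ETS-type core CGGAAG in both replicates and no TGTTTAC. Of the 3 upstream pairs, those at 18.5 kb (6.98, rank 4348, and 10.6, rank 7022) and 38 kb (6.60, rank 4892, and 8.48, rank 10552) held TGTTTAC in both replicates. The pair at 23 kb (5.47, rank 6955, and 10.6, rank 7022) did not, and its peaks shared only 70 bp. Replicate 2 had 2 further peaks, at -39303 bp (rank 17537) and +120628 bp (rank 24480), without a partner.

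DUSP10, whose phosphatase prefers p38 and JNK, had the second strongest peak of the set, at its promoter. The gene is at chr1:221701424-221742089 on the minus strand, and the promoter peak, at -217 and -213 bp, scored 13.6 (rank 813) and 27.8 (rank 656). An intergenic pair 69 kb downstream of the TSS had 7.17 (rank 4101) and 12.3 (rank 5048), with TGTTTAC 13 bp from the peak centre in replicate 1 and on it in replicate 2, and an AP-1 site. In the deposited annotation this position falls in a LINE element. The third pair, in an intron 24.4 kb from the TSS, ranked lower in replicate 1 (5.09, rank 7875) than in replicate 2 (11.7, rank 5617), and had TGTTTAT. The other 3 replicate 2 peaks of DUSP10 had ranks of 13834 to 25156 and no partner.

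DUSP4, a nuclear phosphatase for ERK and JNK, was called in replicate 2 only. Its gene spans chr8:29333064-29350684 on the minus strand, and the single peak lay 98 bp upstream of the TSS with a score of 11.2 (rank 6296) and a TGTTTAC 95 bp from its centre. Among 500 peaks of that list with the closest scores, 54.4% were overlapped in replicate 1. No replicate 1 peak carried the name DUSP4, and the nearest lay 61215 bp from the replicate 2 peak and was named for KIF13B.

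Among the Sprouty genes, SPRY2, which encodes an inhibitor of receptor signalling to RAS and ERK, had the strongest promoter peak. The gene is at chr13:80335976-80341126 on the minus strand, and its promoter peak, at -251 and -237 bp, scored 10.4 (rank 1682) and 18.9 (rank 1829). Its other peaks, 1 in replicate 1 and 2 in replicate 2, lay over 100 kb from the TSS, had ranks of 9428, 15160 and 23158, and were not overlapped.

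SPRY1 differed from SPRY2 in where its overlapping peaks lay. The gene spans chr4:123396795-123403760 on the plus strand, and both pairs were far downstream of the TSS. The stronger, at +79544 and +79551 bp, scored 7.17 (rank 4101) and 17.1 (rank 2416), and the other, at +80627 and +80580 bp, scored 6.98 (rank 4348) and 9.07 (rank 9351) and held TGTTTAC. Promoter peaks of SPRY1 were called in replicate 2 alone, at -20 bp (7.58, rank 12649) and +705 bp (8.77, rank 9936), the latter classed by the start of a different SPRY1 transcript than the one its distance refers to. In all, replicate 2 held 9 SPRY1 peaks and replicate 1 held 2.

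SPRY4 had 1 peak by name, at its promoter in replicate 2 (-39 bp, score 9.52, rank 8616). The gene is at chr5:142310427-142326455 on the minus strand. Among 500 peaks of that list with the closest scores, 42.8% were overlapped. A far stronger pair lay 30.6 kb upstream of the gene start, with scores of 13.4 (rank 841) and 25.1 (rank 855), but the deposited annotation names it for the antisense transcript SPRY4-AS1. Within 100 kb of the SPRY4 start, 2 replicate 1 peaks and 5 replicate 2 peaks were named for SPRY4-AS1 or SPRY4-IT1, and this pair was the only one of them that overlapped.

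SPRED1, which recruits neurofibromin to inactivate RAS, had no peak within 10 kb of its TSS in either replicate. The gene lies at chr15:38252836-38357249 on the plus strand. Its stronger pair, 35.8 kb upstream, scored 10.9 (rank 1439) and 23.8 (rank 985), and in replicate 2 it ranked below only the DUSP1 and DUSP10 peaks of the set. A second pair at -10598 and -10583 bp scored 6.41 (rank 5169) and 10.6 (rank 7022) and held TGTTTAT.

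SPRED2, a relative of SPRED1 that also restrains RAS signalling to ERK, had the most peaks of the set in replicate 1, 6, and 9 in replicate 2, of which 4 were paired. The gene spans chr2:65310851-65432637 on the minus strand. Its promoter pair, at +54 and +21 bp of the TSS of a shorter transcript and 65.9 kb inside the gene as GENCODE draws it, scored 8.11 (rank 3127) and 11.9 (rank 5462). An intronic pair at +46679 and +46646 bp scored 8.49 (rank 2809) and 9.22 (rank 9092), and by GENCODE the nearest protein-coding start to it is that of ACTR2. The other 2 pairs lay far upstream, in introns of LINC02934. The pair at -368723 and -368707 bp had 6.98 (rank 4348) and 13.7 (rank 4063), and the pair at -230340 and -230460 bp had 6.60 (rank 4892) and 8.18 (rank 11206). The strongest SPRED2 peak of replicate 2, in an intron at +11618 bp, scored 17.8 (rank 2148) and had no partner, although 83.0% of the 500 peaks with the closest scores were overlapped.

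Peaks with TGTTTAC were counted mostly far from gene starts, and the intervals were wide. An exact TGTTTAC was present in the windows of 100 bp to each side of the centre in 6 of 26 peaks in replicate 1 (23.1%, exact 95% binomial interval 8.97% to 43.7%; all peaks 30.5%) and in 8 of 45 in replicate 2 (17.8%, 8.002% to 32.1%; all peaks 28.2%). Within 10 kb of the TSS it was in 0 of 9 peaks in replicate 1, for which the exact interval reaches 33.6%, and in 1 of 14 in replicate 2, the DUSP4 peak (7.14%, 0.181% to 33.9%). Over all peaks within 10 kb the share was 23.1% in replicate 1 and 20.1% in replicate 2. Beyond 10 kb, 6 of 17 peaks (35.3%, 14.2% to 61.7%; all peaks 36.1%) and 7 of 31 (22.6%, 9.59% to 41.1%; all peaks 33.1%) held it. Each share over all peaks lies inside the interval of the set, so a difference from other FOXK2 peaks was not detectable with so few peaks.

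Searched as exact letters on both strands in the same windows, TGTTTAT was in 5 of 26 peaks in replicate 1 and 8 of 45 in replicate 2, beside 12.6% and 13.0% of all peaks. The AP-1 site TGACTCA was in 3 of 26 and 10 of 45, beside 16.4% and 16.6%, and the ETS-type core CGGAAG in 3 of 26 and 4 of 45, beside 10.5% and 9.16%. TGTTTAC and TGTTTAT differ only in their last base and were counted apart, and a match is a stretch of sequence, not a measured site.

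Most peaks of the set were classed as intergenic by the deposited annotation, with 18 of 26 (69.2%, 48.2% to 85.7%) and 32 of 45 (71.1%, 55.7% to 83.6%), beside 34.1% and 36.5% of all peaks. GENCODE, which holds noncoding genes such as DUSP5-DT and LINC02934, put 10 of these 18 and 16 of these 32 inside a gene, and left 11 of 26 and 21 of 45 peaks between genes. The GENCODE places are given for peaks of the set only, so they are not compared with all peaks. By the deposited classes introns held 2 of 26 and 4 of 45, with 39.0% and 40.6% of all peaks, and promoters 5 of 26 and 8 of 45, with 21.7% and 18.0%. The median distance to the TSS was 23.7 kb in replicate 1 and 25.7 kb in replicate 2, against 16.1 kb and 20.2 kb for all peaks. The stretch of chromosome for which the start of a given gene is the nearest protein-coding start ran from 96.5 kb at DUSP1 to 2201 kb at SPRY2, with a median of 441 kb, and the median over all protein-coding genes was 60.02 kb.

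Counts were also taken per length of these stretches. Among the 7097 protein-coding genes with a stretch at least as long as that of DUSP1, 36.8% had overlapping peaks. DUSP1 has the shortest stretch of the set, whose median is 441 kb, so this share is not matched to the set for length. The shares of genes by number of pairs, given above, were taken without regard to length. Inside their stretches the 10 genes had 7.74 peaks per Mb in replicate 1 and 14.8 in replicate 2, whatever gene a peak was named for, and all protein-coding genes had 4.04 and 8.83. Single genes differed widely. Per Mb, DUSP5 had 38.1 peaks in either replicate and DUSP1 had 31.1 and 51.8, whereas SPRY2 had 4.09 and 5.91 and DUSP4 had 0 and 4.88. These values rest on few peaks: 5 in either replicate at DUSP5, 3 and 5 at DUSP1, 9 and 13 at SPRY2, and 0 and 2 at DUSP4.

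**Figure D3:**
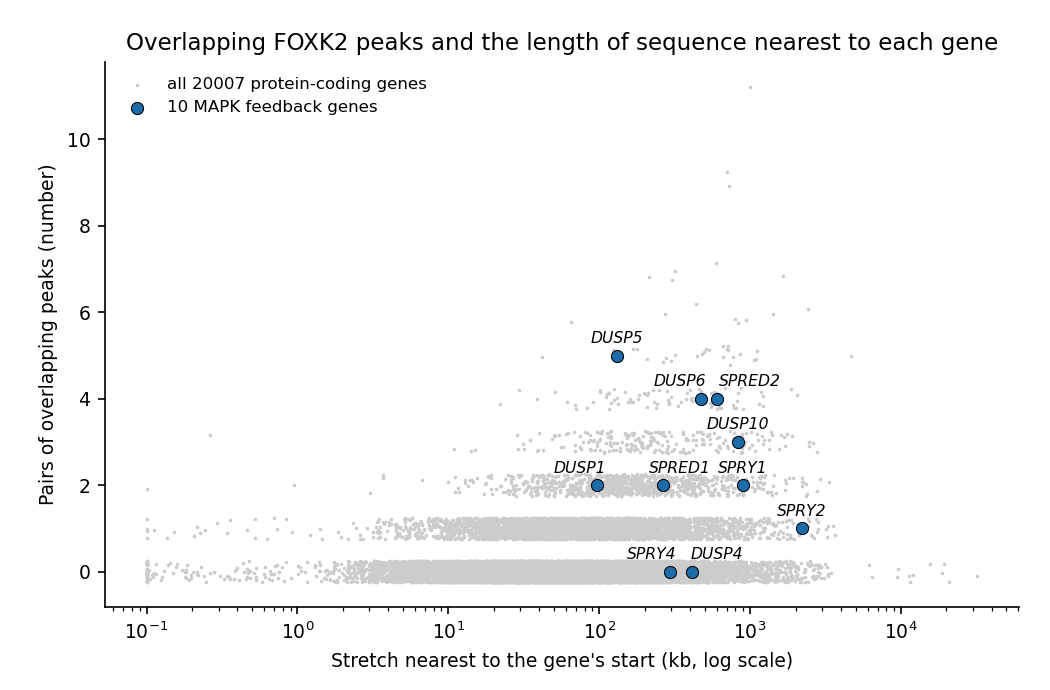
Overlapping FOXK2 peaks per gene against the length of sequence nearest to the gene's start. The horizontal axis is the stretch in kb (log scale, shorter stretches drawn at 0.1 kb) and the vertical axis the number of overlapping pairs, with all 20007 protein-coding genes in grey, spread vertically for display, and the 10 MAPK feedback genes in blue. DUSP5 carries 5 pairs on a stretch of 131 kb, and DUSP4 and SPRY4 none.

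The other genes of these pathways were counted in the same way. Of the remaining MAPK phosphatases, 2 of 5 had overlapping peaks, DUSP7 (best ranks 6554 and 11872) and DUSP8 (7370 and 13458), while DUSP2 and DUSP9 had no peak in either list. The stretches of these 5 genes had a median of 43.9 kb, against 441 kb in the feedback set, and held 9.15 and 18.3 peaks per Mb in replicates 1 and 2, against 7.74 and 14.8. SPRY3 and SPRED3, the rest of the Sprouty family, had none either. Their stretches had a median of 68.5 kb and held 7.30 peaks per Mb in each replicate, named for other genes. Of all protein-coding genes, 9099 of 20007 had no peak in either list.

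Components of the RAS-ERK cascade had overlapping peaks at 8 of 27 genes (29.6%, with 25.6% of all protein-coding genes). Those named here are RRAS2, a RAS relative (best ranks 3127 and 3968), and GAB2, an adaptor of receptor signalling (5169 and 6121). In the JNK, p38 and ERK5 branches 6 of 13 kinase genes had overlapping peaks, led by MAP2K3 (2659 and 1955), MAPK8 (5169 and 4929) and MAP2K7 (6145 and 9936). The 5 of 13 with no annotated peak were MAPK7, MAPK11, MAPK12, MAPK14 and MAP2K4, beside 9099 of 20007 protein-coding genes.

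Other brakes on receptors and RAS had overlapping peaks at 8 of 14 genes. DOK1, an adaptor that dampens kinase signalling, led with best ranks of 438 and 1246, and ERRFI1, an inhibitor of the EGF receptor, had 4 pairs (4892 and 7625). CBLB, a ubiquitin ligase for activated receptors, had 11 overlapping pairs among 11 replicate 1 and 17 replicate 2 peaks, with best ranks of 2021 and 2096. NF1, LZTR1, CBL and DOK2 had no peak, which is 4 of 14 genes, beside 9099 of 20007 protein-coding genes.

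Genes that ERK signalling is known to induce or control had overlapping peaks at 6 of 11. ETV5, an ETS factor, had its best peak at ranks 9 and 5, above every peak of the feedback set. FOS, an AP-1 subunit, had 4 pairs (best ranks 260 and 166), PHLDA1 had 2 (338 and 630), and EGR1 was the only gene of this list with no peak. The plot of shares by list counts genes without regard to the length of their stretches, and the order of the lists differed per length.

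Per Mb of stretch, the feedback set was not the most densely bound list. ERK output genes had 15.3 peaks per Mb in replicate 1 and 24.1 in replicate 2, and the other brakes had 9.75 and 19.8, above the 7.74 and 14.8 of the feedback set in both replicates. The other MAPK phosphatases, at 9.15 and 18.3, were also above the set, and the other Sprouty family genes had 7.30 in each replicate. Within the set, the DUSP genes had 10.3 and 20.6, and the Sprouty and SPRED genes 6.57 and 12.2. The RAS-ERK cascade had 5.77 and 12.8, and the JNK, p38 and ERK5 kinases 5.12 and 14.1. Median stretches were 89.0 kb for ERK output genes, 173 kb for the other brakes, 78.9 kb for the cascade and 81.3 kb for the JNK, p38 and ERK5 kinases.

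**Figure D4:**
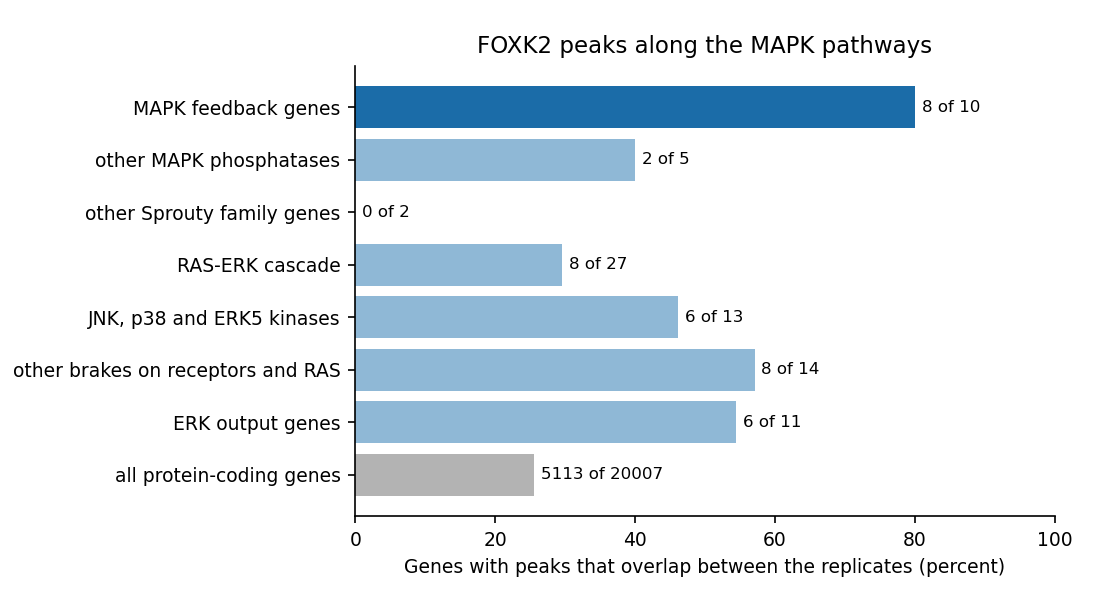
Share of genes with FOXK2 peaks that overlap between the replicates, by gene list. The horizontal axis is the percent of genes in a list, the bars are labelled with the counts, and the grey bar is all protein-coding genes. The feedback set stands at 80%, the other brakes at 57.1%, ERK output genes at 54.5%, the JNK, p38 and ERK5 kinases at 46.2%, the other MAPK phosphatases at 40%, the RAS-ERK cascade at 29.6%, the other Sprouty family genes at 0% and all protein-coding genes at 25.6%, with no adjustment for the length of the stretches.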

How the data were processed

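The deposited peak lists of both FOXK2 ChIP-seq replicates were used. The authors mapped single-end reads to hg38 with Bowtie2 2.2.6 and called and annotated peaks in each replicate with HOMER 4.10. Each deposited row holds a position, a HOMER score, a focus ratio (in HOMER, the fraction of a peak's tags on the expected side of its centre) and a distance to the nearest TSS in bp. The study also describes enrichment statistics per peak by DESeq2 and an FDR limit for a peak set, which the deposited rows do not record; the control and thresholds of the HOMER calls in each replicate are not given in the sources used here.

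Within a list, all scores below 10 were whole multiples of 1 step (0.1886 in replicate 1, 0.1487 in replicate 2, tolerance 0.0051). If 1 step is 1 tag, peaks of the set held 24 to 106 and 24 to 270 tags, and the weakest of all peaks 16 and 21. Library depth is unknown. Scores were only ranked inside their own list.

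Positions were taken as 1-based, and none lay beyond a chromosome end of the hg38 reference. Overlap meant at least 1 shared bp. Motifs were matched as exact letters on either strand, 100 bp to each side of the centre. Gene starts came from GENCODE release 44. Of 11039 protein-coding names, 10637 matched directly, 262 by Entrez ID in RefSeq's gene table (GRCh38.p14), and 140 not at all. Shares carry exact 95% binomial intervals. No test was run: there is 1 condition, and the genes and lists were chosen with earlier results of these data known.

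The text names every gene of the set with its overlapping peaks, from each further MAPK list the 3 genes with the best mean score percentile among those with overlapping peaks and the genes with no peak where these were 5 or fewer, and up to 3 genes with the peak counts of the member that had the most pairs. Peaks with other names near the genes, sites with 1 changed base and peaks of similar score were looked up after the values were seen. Alternatives were score cutoffs, equal list lengths, distance limits, promoter peaks, peaks of any name, stricter overlap, other windows and letters, and leaving out a replicate. The overlap and motif code recovered every simulated case. A gene and a sequence that these rules would print are not reported here. The input libraries and reads were not analysed here. Software was Python 3.11.15 (numpy 2.4.6, pandas 2.3.3, scipy 1.17.1, matplotlib 3.10.9).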

Additional observations from a re-analysis of the deposited data

How the results depend on the processing

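Of 46 values recomputed under the alternatives, 36 stayed within 1.5 times the reported count or inside the exact binomial interval of the reported share, 10 moved and 0 reversed. With only the higher-scoring peaks of each list (the top 50% by score), 100% of replicate 1 peaks of the set were overlapped (88.44% of all peaks). With lists of equal length, 76.67% of replicate 2 peaks were (59.98% of all). Within 10000 bp of the TSS the set had 9 and 14 peaks, with TGTTTAC in 0% and 7.143% (23.13% and 20.14% of all). Promoter peaks alone left 4 genes with a peak in both replicates and 5 and 8 peaks. With TGTTTAC or TGTTTAT, the share was 42.31% in replicate 1 and 35.56% in replicate 2 (41.2% and 39.27% of all), and windows of 500 bp to each side gave TGTTTAC in 28.89% of replicate 2 peaks (35.74% of all). The first and last of these lie inside the interval but are over 1.5 times the reported share. Counting genes with a peak in the remaining list, leaving out a replicate gave 8 to 10 genes. Peaks of any name within 100000 bp of the gene start gave all 10 genes a peak in both replicates, with 27 and 54 peaks. No share of all protein-coding genes is given for this setting, so that count is not read as particular to the set.

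No paired analysis was possible because both lists used here hold peaks of FOXK2 libraries and no result comes from a test. The input libraries, which share the replicate numbers, were not analysed here. With 26 and 45 peaks, shares of the set have wide intervals. Nearest-TSS naming decides which gene a peak counts for, as the peaks named for SPRY4-AS1 and LOC101928093 show. The scores were not set against input, and local copy number was not analysed here.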

Other observations

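Several strong peaks near the feedback genes carry other names in the deposited annotation. Upstream of DUSP5, a pair named for SMNDC1 lay 99.2 kb from the DUSP5 start at ranks 906 in replicate 1 and 571 in replicate 2, and a pair named for SMC3 lay 70.5 kb downstream at ranks 1588 and 3243. All 4 of these peaks held TGTTTAC within 100 bp of the centre. The pair named for SPRY4-AS1 held none in either replicate. Of the 4 peaks named for KIF13B within 100 kb of DUSP4, 1 in replicate 1 and 3 in replicate 2, a single pair overlapped, at ranks 10645 and 25743.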
